A study of Mus musculus with 5 samples.

Results

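The 10 genes described here encode transporters, channels and secreted or matrix proteins of the retinal pigment epithelium: Slc16a8, Slc26a7, Best1, Clic6, Ttr, Pon1, Serpinf1, Timp3, Col8a1 and Crim1. They were chosen by name from 18193 mouse genes that the arrays measured with 1 symbol, and 9 of the 10 were bright enough to be among the 10916 genes tested. Some of them were picked because their signals had differed between diabetic and control retinas, so that difference is given as a description and no test is read from it. Each gene is represented by its probe set (a group of oligonucleotides for 1 transcript) of highest mean signal, and the 10 genes had 23 probe sets in all.

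Total RNA was measured from 3 pools of diabetic mouse retinas and 2 pools of control retinas, with 1 array for each pool. Diabetic replicates 1 and 2 were each made from 2 mice (4 retinas) that had been diabetic for 5 weeks through streptozotocin, which kills the beta cells of the pancreas. Diabetic replicate 3 was made from 3 mice (6 retinas) with experimentally induced diabetes of 3 to 4 weeks, for which the labels do not name the agent. The 2 control pools, control replicates 1 and 2, were each made from 2 untreated, age-matched mice (4 retinas) whose blood glucose was normal. The labels give no strain, sex or age, and since mice were pooled, the spread is between pools and not between animals. Of the 5 arrays, diabetic replicate 3 and control replicate 2 stood apart by high skeletal muscle signal and diabetic replicate 2 by a measure of RNA quality, so values without them are given with the results.

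The pigment epithelium is a single layer of pigmented cells behind the photoreceptors, facing the outer segments on one side and Bruch's membrane and the choroid on the other. It carries lactate, ions and water from the retina to the blood, takes up retinol, and secretes growth factors and matrix proteins with a polarity that keeps the retina and the choroidal vessels in order. A retina lifted from the eye leaves most of this layer behind, so pigment epithelium RNA in a retinal sample can come from cells or fragments that stayed attached, besides any expression in the retina itself. In such bulk RNA, fewer cells of a type and less RNA per cell cannot be told apart.

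Upstream sequences were set beside the levels because most of the 10 genes were lower together in the diabetic pools. The RefSeq promoter table (GRCm38.p6) matched 7 of the 10 genes and did not list Ttr, Clic6 or Slc26a7. In the 250 bases before each start, 3 motifs were searched on both strands: TAATCC, the core bound by OTX factors, and CATGTG and CACGTG, E-boxes of the kind bound by MITF. A match was found in Pon1, Best1 and Serpinf1, which are shown 5′ to 3′ on the gene's strand with the matches in capitals; overlaps between motifs were allowed and none occurred. Pon1 lies on the minus strand at chr6:5193947-5194196, Best1 on the minus strand at chr19:10001634-10001883 and Serpinf1 on the minus strand at chr11:75422624-75422873.
Pon1: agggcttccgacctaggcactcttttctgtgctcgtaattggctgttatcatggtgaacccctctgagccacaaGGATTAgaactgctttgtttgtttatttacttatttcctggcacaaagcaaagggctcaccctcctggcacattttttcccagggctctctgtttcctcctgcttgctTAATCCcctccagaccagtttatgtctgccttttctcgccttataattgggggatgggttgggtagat
Best1: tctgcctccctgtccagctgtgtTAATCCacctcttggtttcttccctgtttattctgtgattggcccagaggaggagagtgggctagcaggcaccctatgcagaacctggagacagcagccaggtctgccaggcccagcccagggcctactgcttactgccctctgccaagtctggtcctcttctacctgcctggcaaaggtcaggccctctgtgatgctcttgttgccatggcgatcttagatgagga
Serpinf1: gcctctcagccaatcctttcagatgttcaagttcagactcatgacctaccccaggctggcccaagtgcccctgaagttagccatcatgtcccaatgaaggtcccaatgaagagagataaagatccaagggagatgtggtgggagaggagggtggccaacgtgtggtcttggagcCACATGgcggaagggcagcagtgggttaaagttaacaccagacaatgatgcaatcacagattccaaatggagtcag
Pon1 held TAATCC on both strands, beginning 68 bases before the start on the forward strand and 176 bases before it on the reverse, and Best1 held it 227 bases before the start. TAATCC occurred in 2 of the 7 members and in 6.25% of the 32851 promoters of the table. CATGTG occurred in 1 of 7 members, as CACATG in Serpinf1, and in 12.3% of promoters, while CACGTG occurred in 0 of 7 and in 6.02%. Matching letters are no evidence of binding, and Slc16a8, Timp3, Col8a1 and Crim1 held none of the 3 in this window.

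Across the genome 0 of 10916 genes, a share of 0%, passed an adjusted p of 0.05 between diabetic and control pools in limma with Benjamini-Hochberg adjustment, and 370 genes, or 3.39%, had an unadjusted p under 0.05. None of the 9 tested members passed. All 10 members, and so all 9 tested ones, had lower means in diabetic pools, against 48.1% of tested genes. In 9 of the 10, and in 8 of the 9 tested, every diabetic pool lay below both control pools, against 8.15% of tested genes. In 6 of the 10, all of them tested, the mean was lower by 0.5 log2 units or more, against 0.834% of tested genes. The median log2 difference over the 10 members was -0.85, and over all tested genes it was 0.01. The members were partly chosen on this contrast, so these shares describe them and are no test.

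The transporters and channels move anions and metabolites across the epithelium. Slc16a8, also known as Mct3, exports lactate and protons through the basolateral membrane. Its signal was 829, 1092 and 997 in diabetic replicates 1 to 3, against 1895 and 2742 in control replicates 1 and 2. The groups did not overlap, and the brightest diabetic pool was well below the dimmer control. On the scale log2(signal + 120.6), used for all differences here, its level averaged 10.09 ± 0.18 over diabetic pools (SD, n = 3) and 11.23 ± 0.36 over control pools (SD, n = 2). That is a difference of -1.14 (SE 0.20, 95% interval -1.60 to -0.69), and -0.89 without control replicate 2.

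Slc26a7, an anion transporter of the SLC26 family, had signals of 794, 679 and 442 in the diabetic pools, against 929 and 1901 in the controls. The groups did not overlap, but diabetic replicate 1 was close to control replicate 1, and control replicate 2 stood far above the other 4 pools. Its log2 difference was -0.97 (SE 0.32), and -0.50 without control replicate 2. A second probe set of the gene was dim and differed by -0.01.

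Clic6, of the chloride intracellular channel family, had signals of 3422, 3609 and 2592 in the diabetic pools, against 4250 and 3869 in the controls. All diabetic pools lay below both controls, with diabetic replicate 3 the lowest, and control replicate 1 rather than 2 was the highest. Clic6 differed by -0.34 (SE 0.15, 95% interval -0.69 to 0.01), and by -0.20 without diabetic replicate 3. Its other probe set pointed the opposite way, at 0.10 with overlapping groups.

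Best1, bestrophin 1, is a calcium-activated anion channel of the basolateral membrane, and its mutation in humans causes Best vitelliform macular dystrophy. Its 1 probe set gave signals of 33.7, 28.8 and 37.2 in the diabetic pools, against 58.9 and 39.4 in the controls. All 5 lay under the 20th percentile of all signals, 120.6, so Best1 was below the filter and was not tested. Its log2 difference was -0.14 (95% interval -0.64 to 0.37 in a fit without the filter), with values of -0.06 without control replicate 1, -0.22 without control replicate 2 and -0.53 with a pseudocount of 1. The array gives little measure of this defining channel of the layer.

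Among the secreted carriers and enzymes, Ttr encodes transthyretin, which carries retinol with its binding protein and thyroid hormone. The brightest of its 4 probe sets had signals of 40717, 64634 and 41264 in the diabetic pools, against 76823 and 101561 in the controls. Diabetic replicate 2 was the highest diabetic pool and came nearest to control replicate 1. The 4 probe sets differed by -0.89, -0.90, -1.15 and -1.45 in order of falling brightness, and in each of them every diabetic pool lay below both controls. Without control replicate 2 the differences were -0.69, -0.69, -0.84 and -0.97.

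Pon1, a paraoxonase best known as an antioxidant enzyme on high-density lipoprotein, had signals of 941, 1197 and 1175 in the diabetic pools, against 2005 and 4920 in the controls. The 3 diabetic pools were close to each other, while the 2 controls were far apart. Pon1 averaged 10.25 ± 0.17 over diabetic pools (SD, n = 3) and 11.68 ± 0.88 over control pools (SD, n = 2), a difference of -1.42 (SE 0.32, 95% interval -2.15 to -0.70). That was the lowest of the 10 genes with all 5 arrays, but without control replicate 2 Pon1 was at -0.80, above Slc16a8 at -0.89, and control replicate 2 lay above control replicate 1 by 1.25.

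Serpinf1 encodes pigment epithelium-derived factor, a secreted serpin that restrains vessel growth and supports neurons. Its signals were 597, 599 and 739 in the diabetic pools, against 590 and 1341 in the controls. It was the exception among the 10, since control replicate 1 was the lowest of all 5 pools and only control replicate 2 was high. The log2 difference of -0.42 (SE 0.30, 95% interval -1.11 to 0.28) was 0.10 without control replicate 2.

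The remaining genes shape the extracellular matrix. Timp3, an inhibitor of metalloproteinases that is bound in Bruch's membrane, had signals of 4304, 4383 and 4880 in the diabetic pools, against 5176 and 7503 in the controls. Diabetic replicate 3 was only a little below control replicate 1, and control replicate 2 was the highest. Timp3 differed by -0.45 (SE 0.15), and by -0.19 without control replicate 2. With all 5 arrays its 4 probe sets gave nearly the same mean difference, from -0.45 to -0.42, although the groups overlapped in the 2 dim ones. Without control replicate 2 they were less alike, at -0.19, -0.11, -0.05 and -0.52 in order of falling brightness.

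Col8a1, the alpha 1 chain of the short-chain collagen VIII, which is found in Bruch's membrane and in Descemet's membrane of the cornea, had signals of 1217, 1204 and 1417 in the diabetic pools, against 2127 and 3069 in the controls. The groups were well separated, and the diabetic pools were close together. Col8a1 differed by -0.94 (SE 0.18, 95% interval -1.35 to -0.53). A dimmer probe set differed by -0.85 without overlap, and the dimmest, near background, by -0.02.

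Crim1, a membrane protein with cysteine-rich repeats that binds bone morphogenetic proteins, had signals of 1299, 944 and 1156 in the diabetic pools, against 1911 and 2262 in the controls. The groups did not overlap, and the 2 controls were close to each other. Its log2 difference was -0.82 (SE 0.18, 95% interval -1.22 to -0.42), which single arrays moved little, to between -0.94 and -0.71. The second probe set, also above the filter, differed by -0.52 without overlap.

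**Figure D1:**
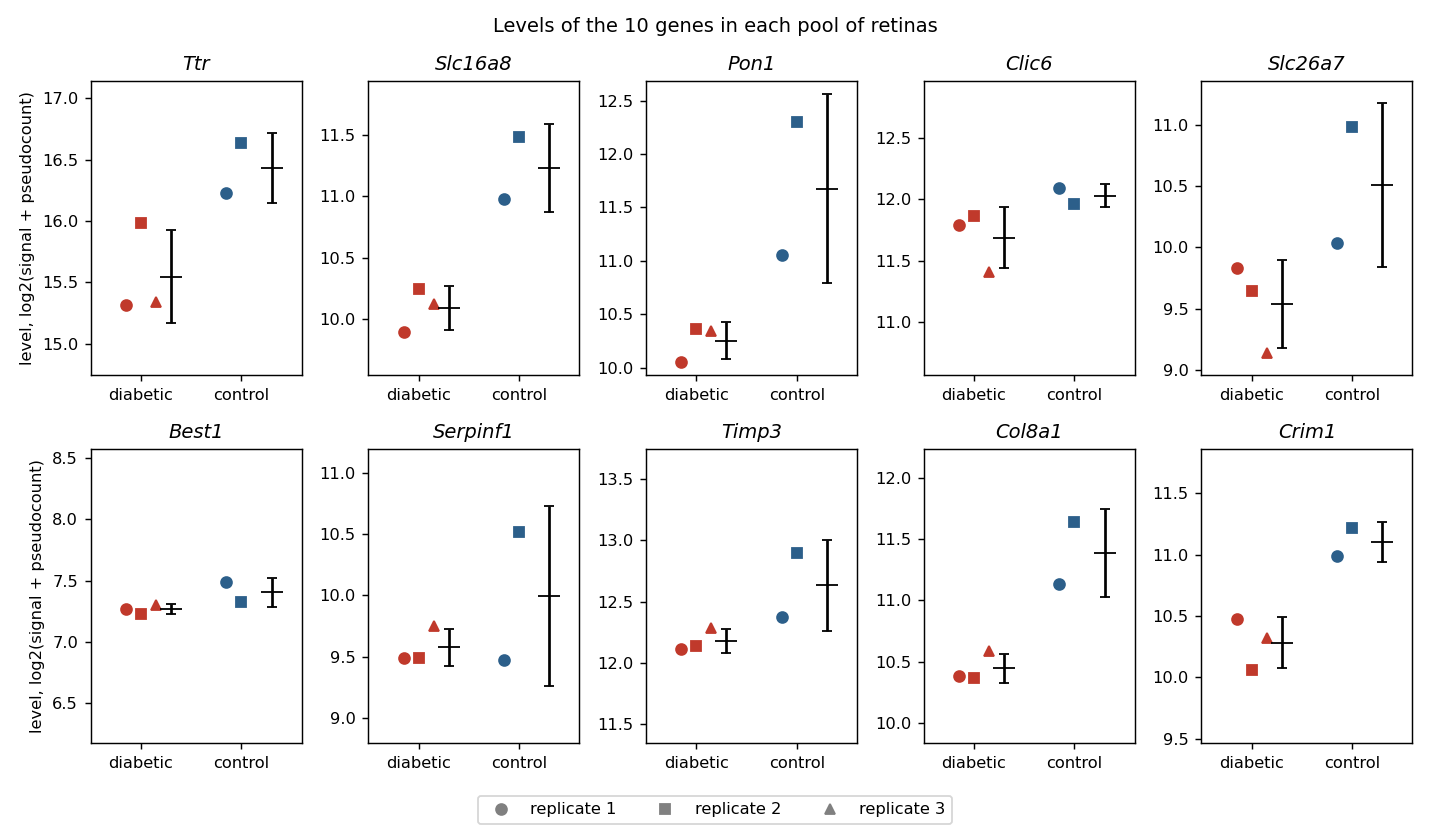
Level of each of the 10 genes, as log2(signal + 120.6), with 1 point for each pool (diabetic left, control right, symbols for the replicate number) and the mean with its SD at the right of each group. In 9 genes all 3 diabetic points lie below both control points, while in Serpinf1 control replicate 1 lies below the diabetic points.

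**Figure D2:**
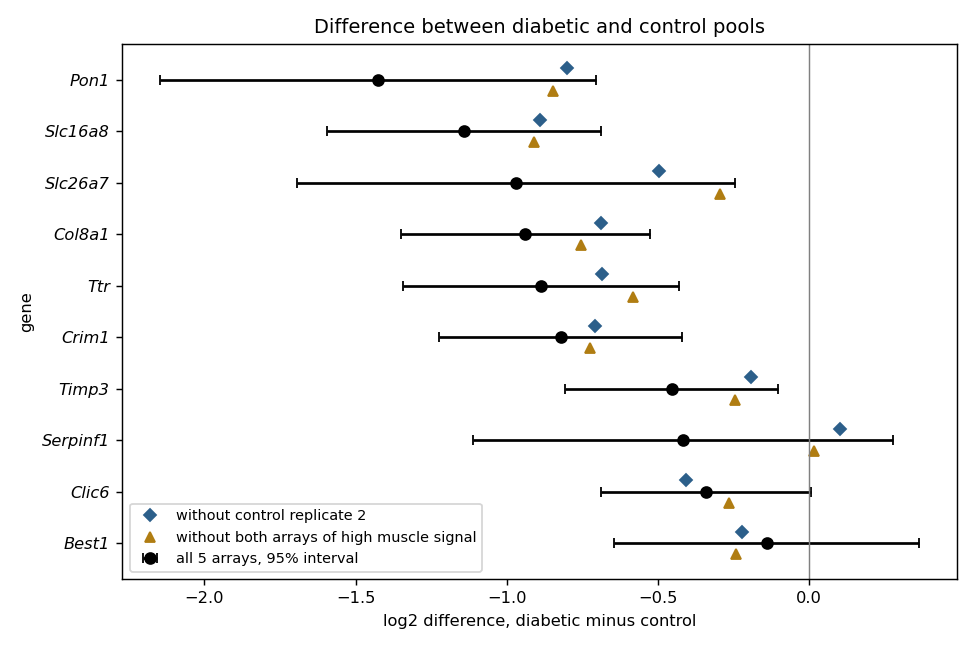
Log2 difference, diabetic minus control, of each gene with its 95% interval from limma (for Best1 from the fit without the filter), beside the values without control replicate 2 and without diabetic replicate 3 and control replicate 2, the arrays of high muscle signal. Differences run from -1.42 for Pon1 to -0.14 for Best1, and Serpinf1 is the only gene whose other values lie above 0.

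On the linear scale of signal plus pseudocount, diabetic over control ran from 0.37 for Pon1 to 0.91 for Best1. Of the 23 probe sets, 21 had a lower mean in diabetic pools, and in 15 every diabetic pool lay below both controls. Above the level of the filter there were 15 probe sets, of which 14 had a lower mean and 13 did not overlap. The 2 with a higher mean were the second probe sets of Clic6 and of Slc16a8. That of Slc16a8 was very dim, with signals of 10.3, 32.9 and 11.1 in diabetic and 4.20 and 5.34 in control pools. The share over all probe sets of the arrays was not computed, and probe sets of 1 gene measure the same RNA. The counts of probe sets are therefore a description and no further support. Slc26a7 and Serpinf1 passed the filter through their control pools, since their diabetic means of 9.54 and 9.58 were under its level of 9.70. Of the list genes named below, it held as well for Lrat, Slc6a20a, Col8a2 and Dcn. Their diabetic means were 9.50, 9.50, 9.52 and 9.49. Such a passage favours genes that are lower in diabetic pools.

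**Figure D3:**
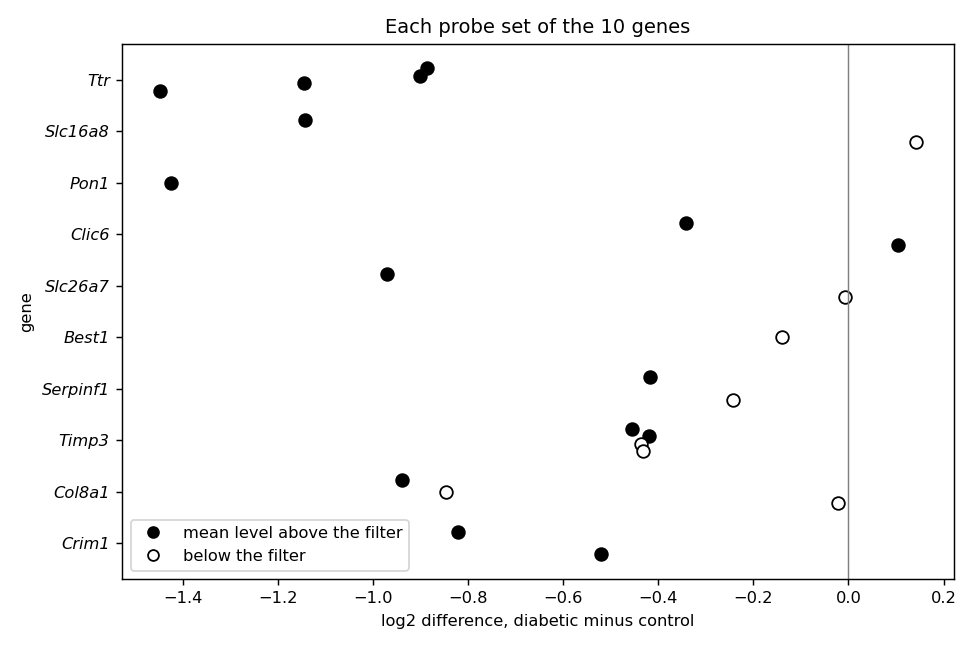
Log2 difference, diabetic minus control, of each of the 23 probe sets, 1 point each, with filled points for a mean level above the filter of 9.70 and open points below it. All 4 probe sets of Ttr and all 4 of Timp3 lie below 0, while the 2 probe sets of Clic6 lie on either side of it.

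The 10 genes differed between the controls as well as between the groups. Control replicate 2 was the highest of the 5 pools in 8 of the 10, and in 8 of the 9 tested, against 17.1% of tested genes. Control replicate 1 was the highest in the other 2, Clic6 and Best1. The median of control replicate 2 minus control replicate 1 was 0.51 over the 10, against 0.00022 over all tested genes. That is a signed difference, so its median over all tested genes is no measure of their spread. Over the diabetic pools the range, which has no sign, had a median of 0.33 over the 10 against 0.25 over all tested genes. These 2 measures are unlike and do not compare the spread of the groups. Set against control replicate 1 alone, 9 of 10 members were lower in each diabetic pool, with medians of -0.41, -0.33 and -0.68 in diabetic replicates 1 to 3. Set against control replicate 2 alone, 10 of 10 were lower, with medians of -1.09, -1.09 and -0.98.

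Diabetic replicate 3 and control replicate 2 stood apart from the other pools by their skeletal muscle genes. The summed signal of 13 muscle markers was 3487, 3046 and 94198 in diabetic replicates 1 to 3, against 2653 and 57192 in control replicates 1 and 2. Between the 2 arrays of high muscle signal, diabetic minus control, all 10 members were lower, with a median of -0.98. With diabetic replicates 1 and 2 averaged and set against control replicate 1, 9 of 10 were lower, with a median of -0.44. Slc26a7 differed most between these comparisons, at -1.85 and -0.30, while Crim1 was at -0.90 and -0.72. Both comparisons have a single control array, and the part of the muscle signal in the result was not tested.

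Diabetic replicate 2 stood apart by RNA quality, with a ratio of 3' to 5' beta-actin signal of 4.32, against 2.01 to 2.71 in the other 4 arrays. Without it the median over the 10 was -0.80.

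Other genes of the layer tell how far the pattern reached. Visual cycle genes, which regenerate the chromophore in the same cells, had 6 of 7 tested members lower, 4 of them without overlap, and a median of -1.22 (-0.68 without control replicate 2). Rgr, the opsin of the layer, differed by -1.997 (-1.32 without control replicate 2), the isomerase gene Rpe65 by -1.62 (-1.06) and the retinol acyltransferase gene Lrat by -1.49 (-0.72), with 0 passing the test over all genes. In the other 3 genes the groups overlapped, with Rlbp1, a retinal-binding protein also found in Muller glia, at -0.08, the opsin gene Rrh at -0.07 and Rdh11 at 0.03; these 3 were named after their values were seen. Their summed signal ran from 52137 to 64174 in diabetic and from 69435 to 87837 in control pools, of which 35700 to 45463 in diabetic and 41294 to 44659 in control pools was Rlbp1. The 4 genes without overlap moved with the 10 genes, and their part in the result was not tested. In this list too, control replicate 2 was the highest pool in 5 of 7 genes.

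The tested members of a further list of 22 transport genes of the pigment epithelium did not share the pattern as a whole. Of these 13 members 7 were lower and 6 higher, none passed, and the median was -0.01. Of the listed genes measured below the filter, Slc6a13 (-1.24), Stra6 (-0.74), Cftr (-0.55), Slc39a12 (-0.46) and Slc22a8 (-0.36) were lower. Kcnq5 (0.56) and Cldn19 (0.41) were higher. In Stra6 and Cftr every diabetic pool lay below both controls, and in Cldn19 every one lay above. These dim genes were not tested, so the list does not settle how far the pattern reached among transporters. Slc6a20a, a proline and imino acid transporter gene, had signals of 487, 634 and 706 in the diabetic pools, against 1001 and 1591 in the controls, and differed by -0.94 (SE 0.25). Kcnj13, the inward rectifier potassium channel Kir7.1 of the apical membrane, was at 1632, 1047 and 886 in the diabetic pools, against 1029 and 3290 in the controls. Its groups overlapped, and its difference of -0.64 (SE 0.42) was 0.15 without control replicate 2. The chloride channel gene Clcn2 differed by -0.19 (SE 0.16). Basigin, the partner that brings lactate transporters to the membrane, differed by -0.05 (Bsg, 95% interval -0.22 to 0.12); Bsg was singled out after its values were seen. Many genes of this list are also expressed by other retinal cells.

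Of 22 further secreted and matrix genes, 16 were tested, 7 of them lower and 9 higher, with 0 passing and a median of 0.01. Of the listed genes measured below the filter, Bmp4 (-0.60), Rbp4 (-0.28), Fbln5 (-0.27) and Wfdc1 (-0.17) were lower and Fgf2 (0.43) was higher. In Bmp4 and Rbp4 every diabetic pool lay below both controls. These dim genes were not tested, so this list too does not settle how far the pattern reached. Col8a2, the other chain of collagen VIII, had signals of 638, 788 and 453 in the diabetic pools, against 862 and 1899 in the controls. Its difference of -0.94 (SE 0.33) was close to that of Col8a1, but leaving out control replicate 2 gave -0.42 and leaving out control replicate 1 gave -1.46. Htra1, a secreted serine protease of the matrix, lay on the other side, at 11964, 12458 and 11080 in the diabetic pools against 9490 and 9441 in the controls. All 3 diabetic pools lay above both controls, as in 9.99% of tested genes, and Htra1 differed by 0.32 (SE 0.09), with values from 0.28 to 0.36 when single arrays were left out. The growth factor gene Bmp7 differed by 0.20 (SE 0.22), and by -0.01 without diabetic replicate 2.

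Paralogs of the 10 genes were set beside them. Of 28 paralogs 11 were tested, 6 lower and 5 higher, with 0 passing and a median of -0.01. Apart from Col8a2, the differences of the tested paralogs lay between -0.21 and 0.24. Slc16a1, Slc16a3 and Slc16a6, of the same family as Slc16a8, differed by 0.01 (95% interval -0.18 to 0.20), 0.13 (-0.33 to 0.59) and -0.12 (-0.50 to 0.27). All were above the -1.14 of Slc16a8. Slc16a7, the other listed gene of that family, was below the filter and differed by -0.87 without overlap. It was named after its values were seen. The paraoxonase gene Pon2 differed by -0.04 (-0.38 to 0.30), and the inhibitor gene Timp2 by 0.12 (-0.23 to 0.47). Of the chloride intracellular channel family, Clic1 differed by 0.06 and Clic4 by 0.24. Clic4 lay above both controls in all 3 diabetic pools, and differed by 0.11 without diabetic replicate 3. Of the SLC26 family, Slc26a2 was at -0.01, Slc26a6 at -0.21 and Slc26a11 at -0.14, and in Slc26a6 the diabetic pools lay below both controls. The differences between the members and their paralogs were not tested.

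Melanosome and melanin genes belong to pigmented cells, and so to this layer too. They were read beside markers of other tissues and cells that the pools could hold. Melanosome and melanin genes had 5 of 9 members tested, 3 lower and 2 higher, and a median of -0.17, with Oca2 at -0.24, Tyrp1 at -0.22 and Mitf at -0.17. Their summed signal was 26737, 5882 and 17552 in diabetic replicates 1 to 3, against 8320 and 24095 in control replicates 1 and 2, an order unlike that of the 10 genes. Without control replicate 2 their median was 0.88. Connective tissue markers of choroid and sclera had 3 of 8 tested, all lower, with Col1a2 at -1.13, Dcn at -0.64, Pcolce at -0.22 and a median of -0.64. That median was 0.36 without control replicate 2, where the summed signal was 15390, against 3379 to 7332 in diabetic pools and 4381 in control replicate 1. Without that pool Pcolce was at 0.36 and Dcn at 0.77, but Col1a2 stayed lower, at -0.55. In Col1a2 every diabetic pool lay below both controls. These genes were high in the same control pool as the 10, and their part in the result was not tested.

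Ttr and Clic6 are also strong in the choroid plexus and Ttr in the ciliary epithelium, so markers of those epithelia were read. Of 12, 11 were measured and 4 were tested, all 4 higher in diabetic pools with a median of 0.13 (0.20 without control replicate 2, and 0.04 without control replicate 1, where Kcne2 and Slc4a5 were both at -0.03), among them Folr1 at 0.25, Zic1 at 0.19 and Slc4a5 at 0.07. The summed signal of the measured markers was 19771 to 20182 in diabetic and 18038 to 19535 in control pools. Of this, 11392 to 12381 in diabetic and 11495 to 12287 in control pools was Kcne2. Kl, Cldn2, Tmem72, F5, Optc, Msx1 and Otx1 were below the filter. Of 8 lens and cornea markers 0 reached the filter, with summed signals of 1736 to 2508 in diabetic and 1591 to 2122 in control pools. Markers of rod photoreceptors, the most numerous neurons of the mouse retina, were all above the filter and had a median of 0.05 over 6 genes, with Cnga1 at -0.10, Sag at 0.07 and Nrl at 0.07. Muller glia markers had a median of 0.05 over 5 genes, with Aqp4 at 0.14, Kcnj10 at 0.07 and Glul at -0.06. Vascular endothelium markers had 4 of 7 tested with a median of 0.06, with Plvap at -0.29, Kdr at 0.12 and Cldn5 at 0.10. The 7 tested skeletal muscle markers had a median of -0.23, with Myl1 at -1.11, Tnnc2 at -0.76 and Atp2a1 at -0.69, and with wide spreads since 1 pool of each group was high. Without control replicate 2 that median was 1.43 and Myl1 was at 1.41, and without control replicate 1 the median was -1.85.

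**Figure D4:**
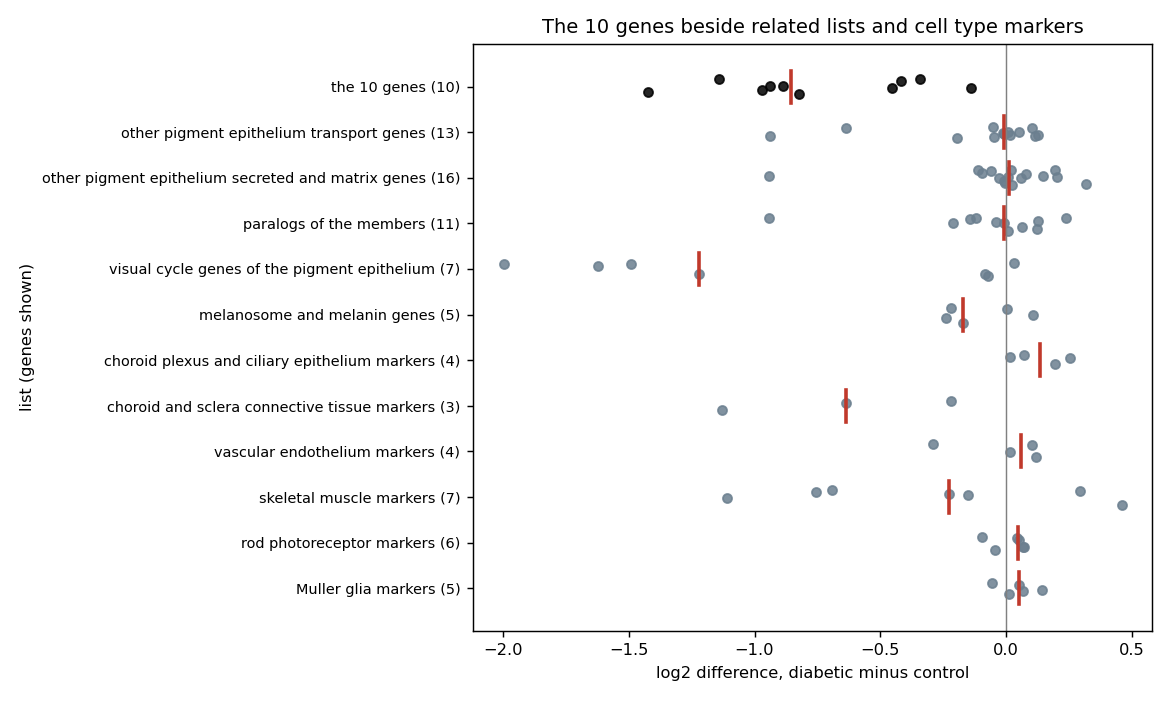
Log2 difference, diabetic minus control, of the 10 genes and of the tested members of each list, 1 point for each gene, with the median as a vertical line and the number of genes in brackets. The 10 genes have a median of -0.85 and the visual cycle genes one of -1.22, while the other transport genes and the paralogs have medians of -0.01.

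**Figure D5:**
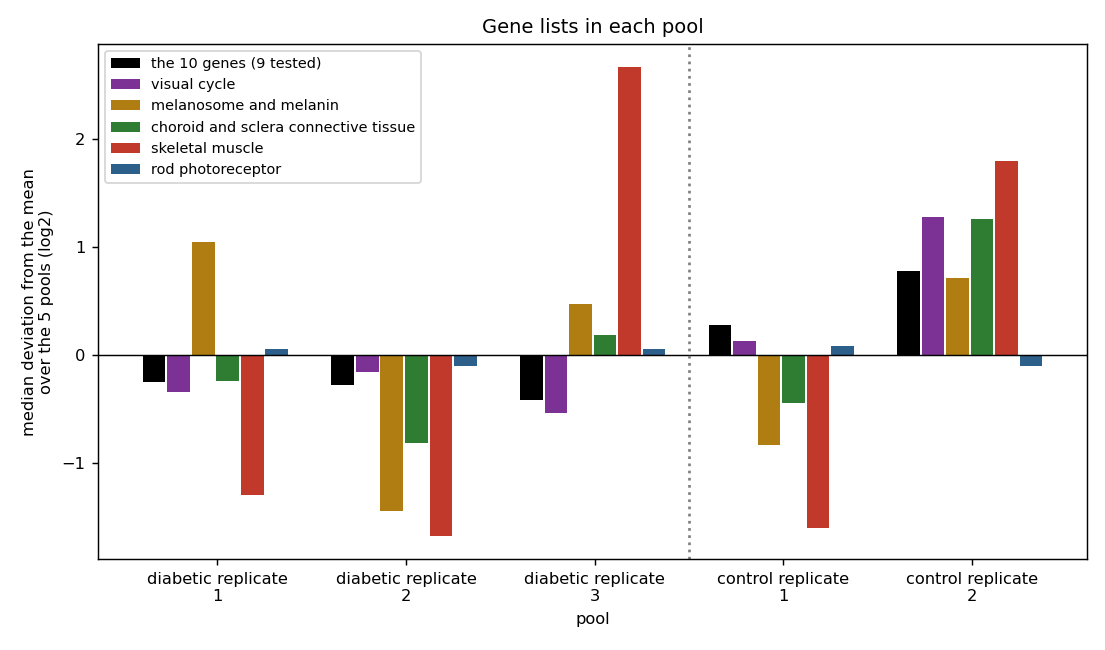
Median deviation of each list in each pool from the mean over the 5 pools, in log2 units, with diabetic pools left of the dotted line and control pools right of it. The 9 tested members run from -0.42 to -0.26 in the diabetic pools and are at 0.27 and 0.77 in control replicates 1 and 2, whereas muscle genes are high in diabetic replicate 3 and control replicate 2 alone.

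The genes whose pattern over the 5 pools was most like that of the 9 tested members were found by the root mean square distance between their deviations and the members' mean deviation. That mean deviation was -0.36, -0.27 and -0.36 in diabetic replicates 1 to 3, against 0.20 and 0.79 in control replicates 1 and 2. The 8 nearest genes were Jun, Itgb8, Scd1, Tbc1d1, Slc6a20a, Polh, Calml4 and Pram1, at distances of 0.02 to 0.16 log2 units, against a median of 0.46 over all tested genes. The members themselves lay at 0.12, for Col8a1, to 0.37, for Pon1. Jun, a transcription factor of the AP-1 family, was at 12.83, 12.85 and 12.80 log2 units in the diabetic pools, against 13.34 and 13.95 in the controls. Itgb8, an integrin subunit gene, differed by -0.79, and Scd1, a fatty acid desaturase gene, by -0.67. Tbc1d1, like Slc6a20a, passed the filter of 9.70 through its control pools. It was at 9.47, 9.65 and 9.54 in the diabetic pools, against 10.05 and 10.31 in the controls. The likeness of the 8 genes is a description over 5 arrays and was searched among 10916 genes.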

How the data were processed

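Total retinal RNA was measured on 5 mouse arrays, 3 of diabetic and 2 of control pools. The deposited values are signal intensities on a linear scale, 1 per probe set. From the values, the authors scaled all 5 columns to the same mean of 2500.0 with the lowest and highest 2% left out. No label or header names the software or genome build, and how the background of low values was corrected is unknown. The number of arrays limits the precision, and median signals ran from 634.6 to 714.7.

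Of 45101 probe sets, 34945 had 1 gene symbol in the platform annotation, 932 several and 9160 none, besides 64 control probe sets. Entrez IDs matched to a RefSeq gene table (GRCm38.p6) gave current symbols for 34741, and 204 were kept. Signals were taken as log2(signal + 120.6), the pseudocount being the 20th percentile. For dim genes, this scale makes differences smaller than they are. Genes were represented by the probe set of highest mean, and the upper 60% by mean level were tested with limma 3.58.1 (lmFit, eBayes with trend, 3 residual degrees of freedom, R 4.3.3), a step tested on simulated data. Figures used matplotlib 3.10.9.

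The 10 genes, the lists and the tests were chosen with earlier results of these data known. Named were the 10, the 3 tested genes of largest difference in each list, tested paralogs, and the 8 genes of nearest pattern. The named transport genes, secreted and matrix genes and paralogs below the filter were added afterwards, with their differences already known. The 17 alternatives covered scaling, pseudocount, filter, probe sets, variance model, array weights, a replicate block and arrays left out.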

Additional observations from a re-analysis of the deposited data

How the results depend on the processing

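Of the 170 values of the 10 genes under the 17 alternatives, 168 were negative. The exceptions were Serpinf1 at 0.10 when control replicate 2 was left out and at 0.02 when both arrays of high muscle signal were. Many of the 170 are not separate checks. Changing the filter or the variance model leaves the differences as they were, and the replicate block repeats the values without diabetic replicate 3. The median over the 10, -0.85, lay between -1.01 without control replicate 1 and -0.59 without control replicate 2, each with 1 control left, which is assumed to vary like the other arrays. It was -0.62 with the pseudocount at the median of all values (690.0), -0.49 with the mean over the probe sets of a gene, which takes in dim ones, and -0.44 without both arrays of high muscle signal. The count of genes with every diabetic pool below both controls was 9. It lay between 9 and 10 with single arrays left out, a step that cannot lower it and so says nothing of its stability. It was 6 with the mean over probe sets and 7 with each array centred on its median.

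No gene passed the adjusted p of 0.05 in limma under 13 alternatives, and the count at an unadjusted p under 0.05 ran from 208 to 695. With single arrays left out the count passing lay between 0 and 1, with Prss22 called without diabetic replicate 2 and Spc25 without diabetic replicate 3. It was 2 with a replicate block (Rgr and Spc25) and 2 without both arrays of high muscle signal (Spc25 and Npl), genes named after their values were seen. None of the 10 genes was among them. Replicates 1 and 2 share a number across the groups, and the labels name no batch. Their deviations from the group means correlated by 0.13 and -0.14 across genes. With 2 controls the deviations of 1 mirror those of the other, so these values cannot tell whether the numbers mark a batch. The replicate block left diabetic replicate 3 without a partner, with a median over the 10 of -0.78. Only 5 arrays and the unknown background of dim probe sets, Best1 above all, limit every value.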
